A study of Mus musculus with 6 samples.

Results

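Myosin light chains are small calmodulin-like proteins that wrap the neck of the myosin heavy chain. Their genes were taken by symbol: *Myl1*, *Myl2*, *Myl3*, *Myl4*, *Myl6*, *Myl6b*, *Myl9*, *Myl12a*, *Myl12b* and *Mylpf*. Of these 10 symbols, 9 had a row among the 20654 genes of the count table, and the level of *Myl3* was not analysed here. RNA-seq was performed on muscle satellite cells (MuSCs), the stem cells of skeletal muscle, that were sorted from the forelimb muscle of C57BL/6 mice and cultured for 3 d. There were 3 control libraries, called wild type in the labels, and 3 libraries labelled *Piezo1* cKO, named cKO-labelled libraries in what follows. The methods give the genotypes as *Piezo1*+/+; *Pax7*CreERT2/+ for control and *Piezo1* flox/flox; *Pax7*CreERT2/+ for cKO. Both genotypes therefore carried the tamoxifen-dependent Cre that the *Pax7* gene drives in MuSCs, and 4-OH TMX was added to the growth medium of both. *Piezo1* deletion was induced in the mice by tamoxifen injections, and their age is not given in the sources used here. The sort took VCAM1+, CD31-, CD45- and Sca1- cells, and neither the labels nor the methods tie a library to 1 animal, so the p-values measure the spread between libraries only.

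Each head of the class II myosins treated here carries an essential light chain, which stiffens the neck, and a regulatory light chain. In sarcomeres the light chains are muscle-specific. MYL1, MYL3 and MYL4 are the essential chains of fast muscle, of slow and ventricular muscle, and of embryonic and atrial muscle, and MYLPF and MYL2 are the regulatory chains of fast muscle and of slow and ventricular muscle. Non-muscle myosin, which contracts the cortex and the stress fibres of most cells, uses MYL6 or MYL6B with MYL9, MYL12A or MYL12B. Phosphorylation of its regulatory chain at a neighbouring threonine and serine by myosin light chain kinase and related enzymes turns this myosin on, and a phosphatase with the targeting subunit PPP1R12A turns it off. PIEZO1 is a cation channel that lets calcium pass and opens when the membrane is stretched. The comparison asks how the transcriptome of MuSCs differs when the gene of this channel is deleted.

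The genes of the regulatory chains are close relatives. Over the coding sequence, *Myl12a* and *Myl12b* shared 96.5% of 516 bases, and *Myl9* shared 85.7% with *Myl12a* and 86.4% with *Myl12b*, whereas *Mylpf* shared 64.5% with *Myl9*. The stretch around the phosphorylated pair of codons is printed here from GENCODE M21 transcripts (GRCm38), because it is the part of these proteins on which the kinases and the phosphatase described later act. Capitals mark the pair, codons 19 and 20 of the non-muscle chains and codons 15 and 16 of *Mylpf*. It lies in coding exon sequence, in exon 2 of each transcript, at chr2:156778584-156778628 (+) for *Myl9*, chr17:70996797-70996841 (-) for *Myl12a*, chr17:70977148-70977192 (-) for *Myl12b* and chr7:127212885-127212929 (+) for *Mylpf*.
Myl9: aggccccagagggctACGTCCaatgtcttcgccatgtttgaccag
Myl12a: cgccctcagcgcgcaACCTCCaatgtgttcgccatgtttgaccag
Myl12b: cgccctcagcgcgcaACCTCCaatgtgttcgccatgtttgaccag
Mylpf: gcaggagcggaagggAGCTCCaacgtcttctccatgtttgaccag
Over these 45 bases *Myl12a* and *Myl12b* each differed from *Myl9* at 8 positions and *Mylpf* differed at 17. The first codon of the pair encodes threonine in the 3 non-muscle chains and serine in *Mylpf*, and the second encodes serine in all 4.

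*Piezo1* itself (GRCm38 chromosome 8, 122481698 to 122551329, minus strand) was counted at 11, 5 and 6 in control libraries 1 to 3 and at 7, 12 and 9 in the cKO-labelled libraries. The counts overlapped, and those of the cKO-labelled libraries were not the lower ones. Counting reads near the 3′ end can leave transcripts of a deleted allele visible, and where the floxed stretch lies is not given in the sources used here, so these few counts are a weak check of the labels. Measurements of *Piezo1* that the study made by RT-qPCR were not analysed here. Total counts were 740936, 931168 and 891531 in control and 810096, 726378 and 769295 in the cKO-labelled libraries. At these depths 3 counts of a gene came to between 3.22 and 4.13 CPM, the counts of a gene per 1e6 counts of its library. Of the myoblast markers *Myod1* and *Des* were counted most. *Myod1*, a transcription factor of activated MuSCs, stood at 1459 ± 102 CPM in control against 1310 ± 205 CPM (SD, n = 3) in the cKO-labelled libraries. *Des*, the muscle intermediate filament, stood at 527 ± 97.2 and 564 ± 44.0 CPM. Some others were low: *Fgfr4* had 3, 9 and 4 counts in control and 8, 8 and 5 in the cKO-labelled libraries. *Chodl* had 0, 0 and 0 in control and 2, 1 and 0 in the cKO-labelled libraries. Of 10 myoblast markers with a row 7 were tested by edgeR and 0 were called, with 2 at an unadjusted p under 0.05. These were *Cdh15*, a cadherin of MuSCs, which lay above control without overlap (log2 fold change 0.53, edgeR adjusted p = 0.118), and *Vcam1*, the surface protein used in the sort, which lay below it (-0.45, edgeR adjusted p = 0.185). *Pax7*, the transcription factor of MuSCs, overlapped (-0.64, edgeR adjusted p = 0.481). Over all genes tested 8.20% lay above control without overlap, 8.31% lay below and 11.9% had an unadjusted p under 0.05. Libraries differed within groups in genes of differentiation. Summed over the 12 differentiation genes with a row, control library 2 was lowest at 163 CPM, beside 500.5 and 386 CPM in control libraries 1 and 3, and cKO-labelled library 2 was highest at 1915 CPM, beside 693 and 980.5 CPM in cKO-labelled libraries 1 and 3.

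Light chain transcripts made up from 0.190% to 0.248% of all counts in a library, and the non-muscle genes supplied most of them. *Myl12a* and *Myl6* were counted more than any other member in every library. Of the light chain counts, *Myl12a* held 58.4% ± 1.51 in control and 52.1% ± 4.46 (SD, n = 3) in the cKO-labelled libraries, and *Myl6* held 36.1% ± 0.379 and 33.2% ± 3.19. The sarcomeric chains *Myl1*, *Myl4* and *Mylpf* together held 1.64%, 0.849% and 1.97% in control and 3.01%, 16.1% and 4.68% in the cKO-labelled libraries. No cKO-labelled library reached down to the control values, and 1 of them stood far above the other two. Because a share can grow only where another shrinks, the lower shares of *Myl12a* and *Myl6* stand beside levels that overlapped between the groups.

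**Figure D1:**
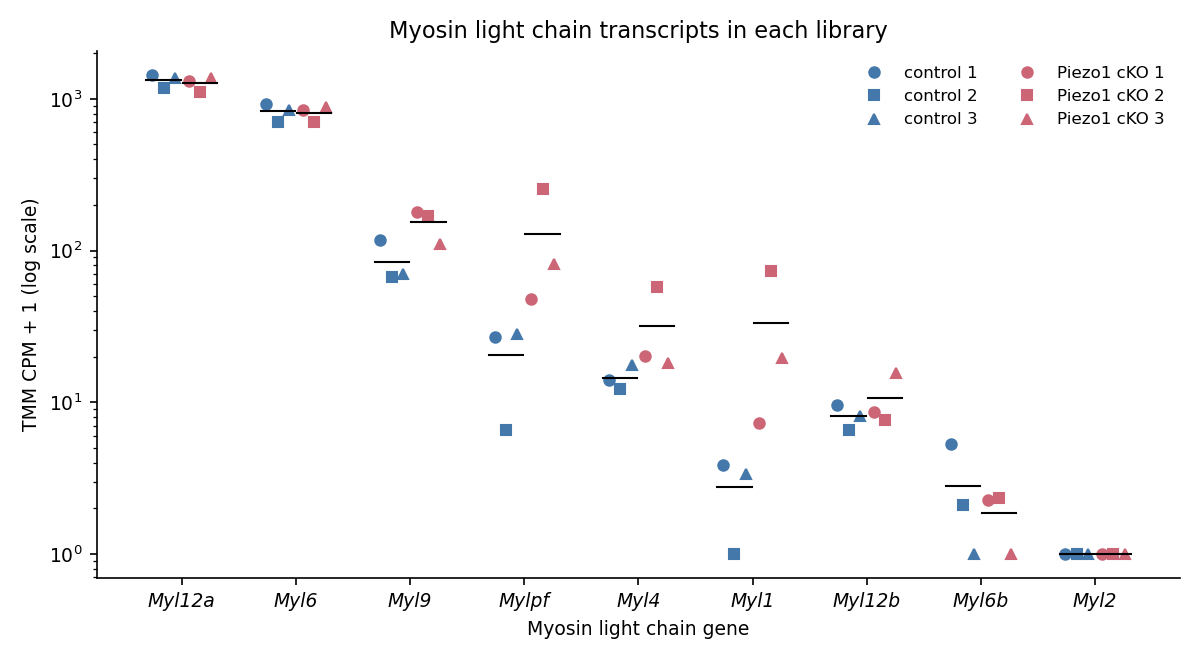
TMM-normalised CPM plus 1 on a log scale (y axis) for each of the 9 light chain genes with a row (x axis), with 1 point per library, control in blue and Piezo1 cKO in red, and black lines at the group means. *Myl12a* and *Myl6* lie near the top in all 6 libraries, *Myl9* is spread over 2.72 times between its lowest and highest library, and *Mylpf*, *Myl4* and *Myl1* are highest in cKO-labelled library 2.

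Of the 9 genes with a row, 5 had enough counts for the test of all genes: *Myl12a*, *Myl6*, *Myl9*, *Mylpf* and *Myl4*. The test was the quasi-likelihood test of edgeR, adjusted by Benjamini-Hochberg over 8551 genes, and a gene was called at an adjusted p under 0.05. It called 40 genes higher in the cKO-labelled libraries (0.468% of those tested) and 27 lower (0.316%). Among the light chains 1 gene, *Myl9*, was called higher and none lower. *Myl1*, *Myl12b*, *Myl6b* and *Myl2* did not pass the filter on low counts and are given by their counts.

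*Myl9* encodes the regulatory chain that is best known from smooth muscle and also serves non-muscle myosin. The gene lies on chromosome 2 from 156775420 to 156781658, on the plus strand. It had 81, 59 and 58 counts in control libraries 1 to 3 and 141, 127 and 83 counts in cKO-labelled libraries 1 to 3. Normalised by TMM, edgeR's scaling for library size and composition, these were 83.6 ± 28.5 CPM in control against 152 ± 36.9 CPM (SD, n = 3) in the cKO-labelled libraries. The groups overlapped, since control library 1 stood above cKO-labelled library 3. The log2 fold change was 0.89 with an SE of 0.20, or 1.85-fold, and the adjusted p by edgeR was 0.0229. The call ended under DESeq2 (0.86, adjusted p by DESeq2 = 0.0863), under cyclic loess normalisation (0.87, adjusted p by limma = 0.149), without control library 3 (0.77, edgeR 0.0687) and without cKO-labelled library 2 (0.81, edgeR 0.369), and *Myl9* kept its direction in all of these. In bulk RNA, more cells of a kind and more RNA per cell cannot be told apart.

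The other regulatory chains of non-muscle myosin were not called. *Myl12a*, the most abundant light chain transcript of the data (chromosome 17, 70993656 to 71002878, minus strand), had 1002, 1055 and 1162 counts in control and 1031, 845 and 1035 in the cKO-labelled libraries. Its level was 1330 ± 137 CPM in control against 1265 ± 133 CPM (SD, n = 3) in the cKO-labelled libraries, and the groups overlapped. The log2 fold change was -0.07 with an SE of 0.15 and a 95% interval, taken from the SE, of -0.36 to 0.22 (adjusted p by edgeR = 0.909). Its sign turned with total-count scaling, where the log2 fold change was 0.0034, and with cyclic loess, where it was 0.18. A change as large as that of *Myl9* lay outside this interval. *Myl12b*, its neighbour on the same chromosome (70973133 to 70990890, minus strand), had 6, 5 and 6 counts in control and 6, 5 and 11 in the cKO-labelled libraries, which was too few for the test and overlapped between the groups. GENCODE M21 holds a second gene of this name that overlaps the first, and which of them the single count row stands for is not given in the sources used here, so its counts, ratios and level per kilobase carry that doubt.

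Library size cancels when 2 chains of a class are compared within a library. *Myl9* stood at 8.08%, 5.59% and 4.99% of the *Myl12a* count in control and at 13.7%, 15.0% and 8.02% in the cKO-labelled libraries. The mean log2 ratio of *Myl9* to *Myl12a* was -4.03 ± 0.36 in control and -3.08 ± 0.49 (SD, n = 3) in the cKO-labelled libraries, a difference of 0.95 with p = 0.2 in a two-sided exact permutation test. With 3 libraries against 3, no p under 0.1 is possible. The ratio of cKO-labelled library 3 lay just below that of control library 1, so the groups overlapped in this measure too. The other ratios rested on few counts: in the same exact permutation test, *Myl9* to *Myl12b* differed by 0.53 on the log2 scale (p = 0.4), *Myl12a* to *Myl12b* by -0.42 (p = 0.2) and *Myl6b* to *Myl6* by -0.30 (p = 0.9). Adjusted over these 4 ratios, the smallest p by permutation was 0.4.

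As a share of the counts of *Myl9*, *Myl12a* and *Myl12b* together, *Myl9* held 7.44%, 5.27% and 4.73% in control and 12.0%, 13.0% and 7.35% in the cKO-labelled libraries. The 95% Wilson intervals ran from 3.68% to 9.15% over the control libraries, from 10.2% to 13.9% and from 11.0% to 15.2% in cKO-labelled libraries 1 and 2, and from 5.97% to 9.02% in cKO-labelled library 3. cKO-labelled libraries 1 and 2 thus lay outside the control range by more than the counting error, and library 3 lay within it. These intervals cover counting error only. The summed level of the 3 non-muscle regulatory genes was 1421 ± 161 CPM in control against 1426 ± 118 CPM (SD, n = 3) in the cKO-labelled libraries, since *Myl12a* set most of it.

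**Figure D2:**
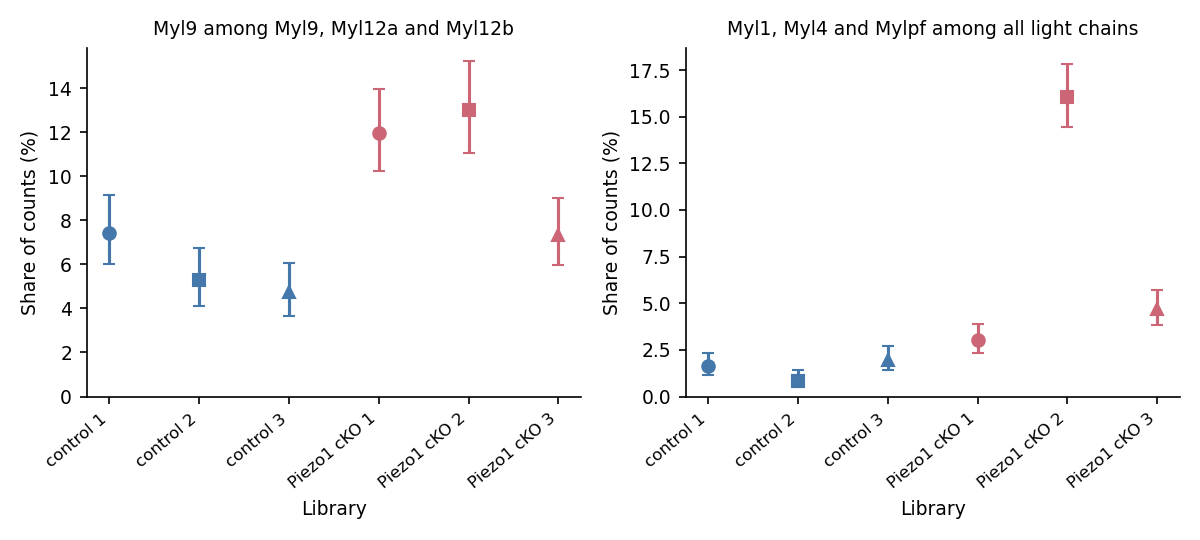
Left, the share of *Myl9* among the counts of *Myl9*, *Myl12a* and *Myl12b*. Right, the share of *Myl1*, *Myl4* and *Mylpf* among all light chain counts. Each point is 1 library (x axis), the y axis is percent of counts, and bars are 95% Wilson intervals; the highest points are cKO-labelled library 2 with 13.0% on the left and 16.1% on the right.

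The essential chains of non-muscle myosin were nearly all *Myl6* (chromosome 10, 128490860 to 128494145, minus strand). It had 644, 631 and 714 counts in control and 660, 532 and 665 in the cKO-labelled libraries, or 824 ± 112 and 807 ± 92.9 CPM (SD, n = 3). The groups overlapped, and the log2 fold change was -0.03 with an SE of 0.14 and a 95% interval of -0.31 to 0.25 (adjusted p by edgeR = 0.962). Its sign turned with total-count scaling (0.05) and cyclic loess (0.17). *Myl6b*, which lies directly upstream of *Myl6* on the same strand (128494157 to 128498685), had 3, 1 and 0 counts in control and 1, 1 and 0 in the cKO-labelled libraries. These were at or under the floor of 3 counts in every library, and no fold change is given. Among all non-muscle light chain counts, the regulatory class held 63.3% ± 0.592 in control and 63.9% ± 0.896 (SD, n = 3) in the cKO-labelled libraries, and the groups overlapped.

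The sarcomeric chains were scarcer than *Myl12a*, *Myl6* and, in control, *Myl9*. *Mylpf*, the regulatory chain of fast muscle (chromosome 7, 127208890 to 127214298, plus strand), had 18, 5 and 23 counts in control and 37, 191 and 61 in the cKO-labelled libraries. All 3 cKO-labelled libraries stood above all 3 control libraries, at 127 ± 110 against 19.5 ± 12.1 CPM (SD, n = 3). Over all genes tested, 8.20% had the cKO-labelled libraries above control without overlap, and 8.31% had them below. Control library 2 was the lowest of its group and cKO-labelled library 2 the highest of its own. The log2 fold change was 2.72 with an SE of 1.00, and the adjusted p by edgeR was 0.415. No alternative called it, and without cKO-labelled library 2 the log2 fold change was 1.74 (edgeR adjusted p = 0.262).

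*Myl4*, the essential chain of embryonic muscle (chromosome 11, 104550663 to 104595753, plus strand), had 9, 10 and 14 counts in control and 15, 43 and 13 in the cKO-labelled libraries. In CPM the groups did not overlap, at 13.5 ± 2.74 against 31.0 ± 22.3 (SD, n = 3), although cKO-labelled library 3 exceeded the highest control library only slightly. The log2 fold change was 1.18 with an SE of 0.40 (adjusted p by edgeR = 0.176). It fell to 0.42 without cKO-labelled library 2 (adjusted p = 0.871), and without cKO-labelled library 1 *Myl4* was called by edgeR (1.44, adjusted p = 0.0104). *Mylpf* reached 12.7 CPM in 2 control libraries and *Myl4* in 1, where the filter asks for 3 libraries, so both passed it with the help of the cKO-labelled libraries. Their separation is given as a description only.

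*Myl1*, the essential chain of fast muscle (chromosome 1, 66924295 to 66945404, minus strand), had 2, 0 and 2 counts in control and 5, 55 and 14 in the cKO-labelled libraries. Its CPM did not overlap between the groups, at 1.75 ± 1.53 in control and 32.5 ± 35.3 (SD, n = 3) in the cKO-labelled libraries. The control libraries were at or under the floor of 3 counts. *Myl1* did not pass the filter, and with no filter its fitted log2 fold change of 4.16 had an adjusted p of 0.351 by edgeR. No control library reached the filter's level of 12.7 CPM for *Myl1*, so a fit with the filter can hold it only through the cKO-labelled libraries, and such a fit is not read as support. *Myl2*, the regulatory chain of slow muscle and of the ventricle (chromosome 5, 122100951 to 122113472, plus strand), was at 0 in all 6 libraries, which allows up to between 3.22 and 4.13 CPM per library. *Myl7*, the atrial regulatory chain, had 1 count in cKO-labelled library 1 and 0 elsewhere.

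**Figure D3:**
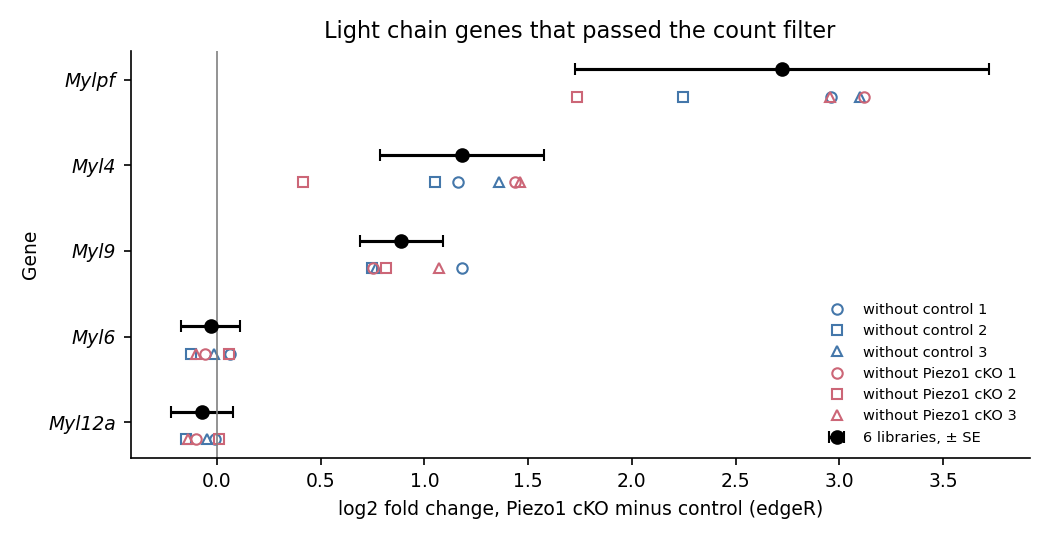
Log2 fold change (x axis, Piezo1 cKO minus control, edgeR) of the 5 light chain genes tested (y axis). Black points with bars are the values over 6 libraries ± SE, and open symbols are the values with the named library left out. *Myl9* stays between 0.75 and 1.18, *Mylpf* drops to 1.74 and *Myl4* to 0.42 without cKO-labelled library 2, and *Myl6* and *Myl12a* lie about 0.

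Levels of different genes were compared per kilobase of the longest protein-coding transcript. In control the order was *Myl12a* (687 CPM per kb), *Myl6* (494), *Myl9* (74.1), *Mylpf* (25.5), *Myl4* (14.4), *Myl12b* (3.31), *Myl6b* (1.76), *Myl1* (1.61) and *Myl2* (0). The values of *Mylpf* and *Myl4* overlapped in control, as did those of *Myl12b* and *Myl6b*, of *Myl6b* and *Myl1*, and of *Myl1* and *Myl2*, and the other neighbours were apart. In the cKO-labelled libraries, *Mylpf* (165 CPM per kb) stood next after *Myl6*, overlapping with *Myl9* (135), and *Myl1* (30.1) stood beside *Myl4* (32.9), also overlapping. Each UMI marks a cDNA molecule primed at the poly(A) tail, so counts need not grow with length. In plain CPM the order in control was the same, and in the cKO-labelled libraries *Myl9* (152 CPM) stood above *Mylpf* (127 CPM) and *Myl1* (32.5 CPM) above *Myl4* (31.0 CPM).

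The genes whose profile over the 6 libraries was most like that of *Myl9* were sought among 7428 tested genes with a mean of at least 20 CPM, by the root mean square difference of centred log2 CPM. They were *Gm26532* (0.162), *Xirp1* (0.184), *Bcas3* (0.196), *Tab2* (0.201) and *Pnpla2* (0.215). *Xirp1* encodes Xin, an actin-binding protein of muscle, and had 58, 37 and 49 counts in control and 82, 80 and 64 in the cKO-labelled libraries (log2 fold change 0.72, adjusted p by edgeR = 0.0561). For *Mylpf* the nearest genes were *Tnnc1* (0.395), *Tnni1* (0.408), *Tnnt1* (0.503), *Mymk* (0.519) and *Myog* (0.526). Of these, 3 encode slow-muscle troponin subunits, *Mymk* encodes the fusogen myomaker and *Myog* the transcription factor myogenin. *Tnnc1* had 9, 6 and 11 counts in control and 25, 98 and 41 in the cKO-labelled libraries, with library 2 highest in its group as for *Mylpf*. These likenesses describe 6 libraries and share their depth and grouping.

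The summed level of the muscle differentiation genes had the same lowest and the same highest library as that of the sarcomeric chains, which does not hold for each gene of the list. Of 14 listed genes, 12 had a row and 9 were tested, and these had a median log2 fold change of 2.01, beside 0.002 over all genes tested. Only *Acta1*, *Tnnt3* and *Ttn* reached the filter's 12.7 CPM in every control library. The other 6, such as *Actc1* with 6, 0 and 0 counts in control and 11, 96 and 21 in the cKO-labelled libraries, passed with the help of the cKO-labelled libraries, which favours a positive sign, so the median is a description only. The main edgeR test called none of the 9, and 5 had an unadjusted p under 0.05, as did 11.9% of all genes tested. Other settings called some genes of the list, all higher. DESeq2 called *Acta1*, the skeletal muscle actin, cyclic loess called *Tnnc1*, the replicate block called both of these, and edgeR with no filter called *Mymk*, *Mymx*, *Tnnc1* and *Tnnt3*. With a library left out, edgeR called 2 of the list without control library 2 and without cKO-labelled library 1 or 2. *Tnnc1* reached 12.7 CPM in 0 control libraries and in 3 cKO-labelled libraries, so it passed the filter only through the latter. Calls of *Tnnc1* in fits with the filter are therefore not read as support. *Acta1*, the most abundant of the list, had 46, 57 and 80 counts in control and 133, 353 and 205 in the cKO-labelled libraries. The sarcomeric heavy chain with the most counts was *Myh3*, the embryonic myosin to which such light chains bind. It had 1, 0 and 0 counts in control and 9, 35 and 4 in the cKO-labelled libraries, too few for the test. With no filter on low counts edgeR called *Myh3* higher. *Myh1*, an adult fast myosin, had 1, 0 and 1 counts in control and 1, 8 and 2 in the cKO-labelled libraries.

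**Figure D4:**
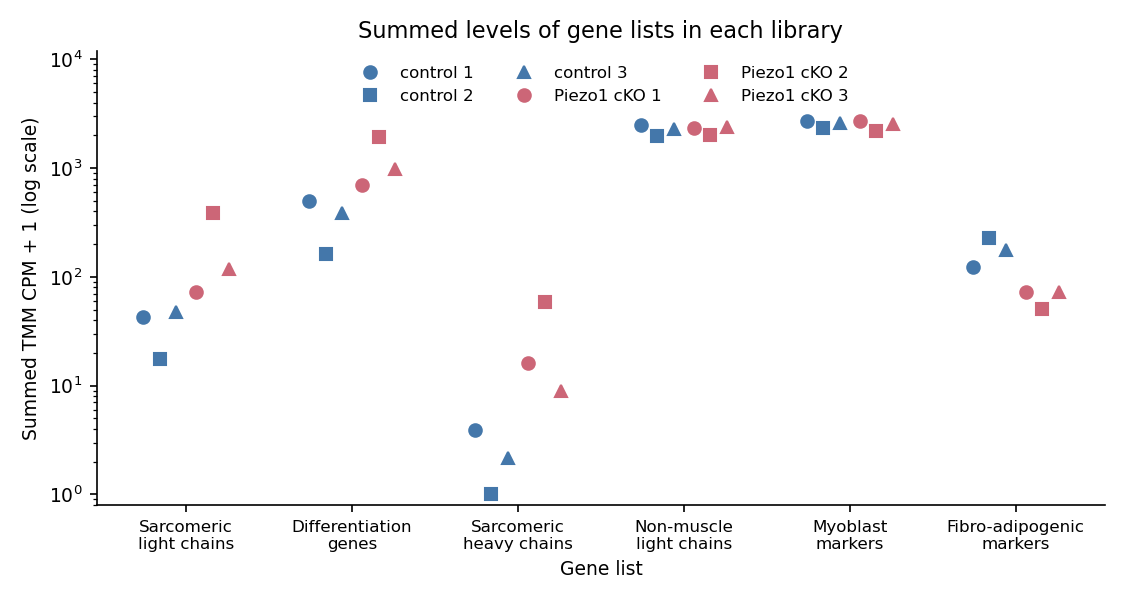
TMM-normalised CPM plus 1, summed over the genes of each list, on a log scale (y axis), with 1 point per library and list (x axis), control in blue and Piezo1 cKO in red. The sarcomeric light chains, the differentiation genes and the sarcomeric heavy chains are lowest in control library 2 and highest in cKO-labelled library 2, whereas the non-muscle light chains and the myoblast markers overlap between the groups and the fibro-adipogenic markers are lower in all 3 cKO-labelled libraries.

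Markers of other cells were examined because smooth muscle cells and pericytes express *Myl9* and fibroblasts express the non-muscle chains. Of the smooth muscle and pericyte list, 11 genes had a row, and their sums were 321, 206 and 586 CPM in control and 512, 637 and 513 CPM in the cKO-labelled libraries, which overlapped. *Acta2*, smooth muscle actin and the most abundant gene of the list, set these sums with 136, 66 and 368 counts in control and 274, 378 and 251 in the cKO-labelled libraries, and it is also made by cultured myoblasts. *Myh11* and *Cnn1*, which define contractile smooth muscle, had 0 to 2 counts in any library, and *Lmod1* and *Abcc9* each had 1 count over all 6 libraries. Of 3 genes of this list tested, edgeR and DESeq2 called none, with 1 at an unadjusted edgeR p under 0.05, the pericyte proteoglycan gene *Cspg4*. It had 28, 25 and 25 counts in control and 39, 32 and 54 in the cKO-labelled libraries (log2 fold change 0.76, edgeR adjusted p = 0.143). Its CPM lay above control without overlap, as for 8.20% of all genes tested, and the other 2 genes tested overlapped. Of the genes with fewer counts, *Rgs5*, another pericyte gene, had 0, 0 and 1 counts in control and 2, 4 and 6 in the cKO-labelled libraries. These did not overlap in CPM but were too few for the test. *Notch3*, of the same list and also of the myoblast list, had 3, 4 and 7 counts in control and 6, 12 and 11 in the cKO-labelled libraries, which overlapped in CPM. In contrast, *Pdgfrb*, also of pericytes, had 3, 3 and 10 in control and 2, 7 and 3 in the cKO-labelled libraries. *Tagln*, a smooth muscle gene, had 6, 5 and 16 counts in control and 4, 5 and 8 in the cKO-labelled libraries. The part of such cells in the difference of *Myl9* was not tested.

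The 9 fibro-adipogenic markers with a row summed to 122, 225 and 176 CPM in control and 72.2, 50.2 and 71.6 CPM in the cKO-labelled libraries, without overlap. Their most abundant gene was *Cd34*, which MuSCs also express, with 53, 172 and 91 counts in control and 39, 23 and 35 in the cKO-labelled libraries. *Cd34* was not called by edgeR (log2 fold change -1.59, adjusted p = 0.181), but DESeq2 called it lower (-1.60, adjusted p by DESeq2 = 0.000824), as did edgeR with no filter and without control library 1 or 2. *Dcn*, the proteoglycan decorin, was called lower by edgeR, with 18, 23 and 37 counts in control and 8, 5 and 3 in the cKO-labelled libraries (log2 fold change -2.17, adjusted p = 0.000387). It reached 12.7 CPM in all 3 control libraries and in 0 cKO-labelled libraries, so it passed the filter only through control, and DESeq2 gave it no adjusted p. *Pdgfra*, which defines these cells, had 4, 3 and 8 counts in control and 1, 1 and 3 in the cKO-labelled libraries, *Lum* had at most 4 and *Pi16* was at 0. *Ly6a*, which encodes the Sca1 antigen that the sort selected against, had 2, 2 and 3 counts in control and 5, 8 and 9 in the cKO-labelled libraries. Their part in the light chain values was not tested. Endothelial markers summed to between 8.27 and 21.2 CPM per library, immune markers to between 10.1 and 29.0 CPM and Schwann cell markers to between 1.32 and 10.1 CPM, and each of these lists overlapped between the groups.

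No gene of the enzymes and partners of the light chains was called. Of 56 genes in 7 lists (among them kinases, calmodulin, the phosphatase and the heavy chains), 49 had a row, 32 were tested and edgeR called 0. Since edgeR called 0.468% of all genes tested higher and 0.316% lower, a count of 0 among 32 says little about these genes. In this set 3 genes, *Pak1* among them, had an unadjusted p under 0.05, beside the 11.9% of all genes tested, and DESeq2 and limma-voom each called 0. The median log2 fold change was -0.05 beside 0.002 over all genes tested, and no gene of the 32 lay above control without overlap, whereas 2 lay below, beside 8.20% above and 8.31% below over all genes tested. One of these, *Cdc42bpg*, reached 12.7 CPM in 3 control libraries and in 0 cKO-labelled libraries, so it passed the filter only through control and its position is a description. Without cKO-labelled library 1 edgeR called *Pak1* lower.

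Among the kinases 9 of 15 genes with a row were tested, with a median log2 fold change of -0.10. *Mylk*, the smooth muscle and non-muscle light chain kinase, was near 0, with 0, 1 and 1 counts in control and 1, 0 and 2 in the cKO-labelled libraries. *Pak1*, a kinase downstream of Rac and Cdc42 and the most abundant of the list, had 259, 480 and 380 counts in control and 371, 224 and 240 in the cKO-labelled libraries (log2 fold change -0.33, SE 0.15, adjusted p by edgeR = 0.393). The groups overlapped for *Pak1*.

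Calmodulin carries the calcium signal to myosin light chain kinase. *Calm2*, a gene that encodes it, had 697, 818 and 882 counts in control and 790, 617 and 694 in the cKO-labelled libraries, or 985 ± 66.2 and 912 ± 93.4 CPM (SD, n = 3). The groups overlapped, and the log2 fold change was -0.11 with an SE of 0.14 (adjusted p by edgeR = 0.833). Its sign turned with cyclic loess.

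The phosphatase list had 7 genes tested, all overlapping between the groups, with log2 fold changes from -0.29 to 0.03. *Ppp1r14b*, an inhibitor subunit and the most abundant of these genes, had 1253, 1417 and 1256 counts in control and 1178, 799 and 1069 in the cKO-labelled libraries (-0.29, SE 0.15, adjusted p by edgeR = 0.434). *Mprip*, which ties the phosphatase to actin, had 417 ± 20.0 CPM in control against 385 ± 60.6 CPM (SD, n = 3) in the cKO-labelled libraries.

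The heavy chains of non-muscle myosin, which bind *Myl6*, *Myl9*, *Myl12a* and *Myl12b* products, overlapped between the groups as *Myl6* and *Myl12a* did. *Myh9* had 128, 126 and 177 counts in control and 137, 116 and 151 in the cKO-labelled libraries, a log2 fold change of -0.01 with an SE of 0.15 (adjusted p by edgeR = 0.983). Its sign turned with total-count scaling and cyclic loess. *Myh10* had 32, 34 and 48 counts in control and 40, 38 and 30 in the cKO-labelled libraries (0.004, SE 0.23, edgeR 0.995), and its sign turned with DESeq2, cyclic loess and no filter. *Myh11*, the smooth muscle heavy chain with which MYL9 also pairs, had 1 count in cKO-labelled library 2 and 0 elsewhere.

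**Figure D5:**
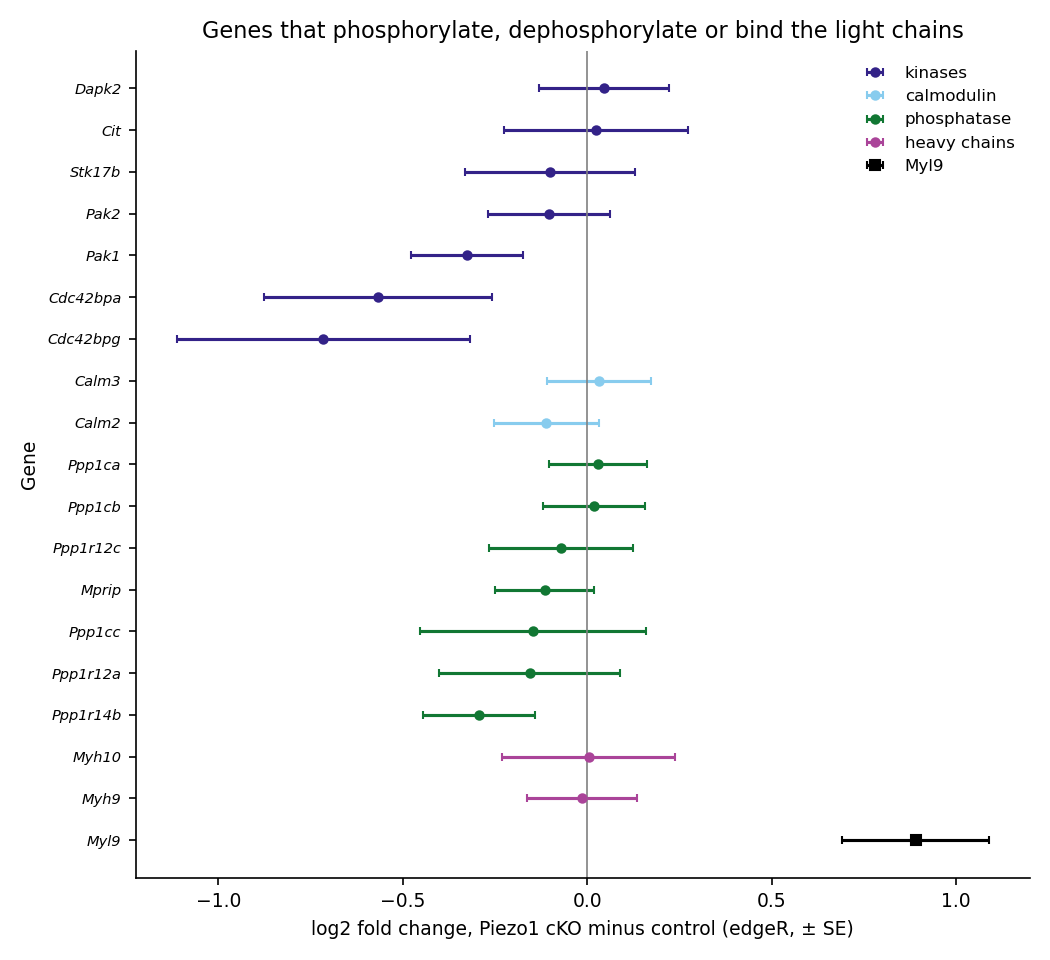
Log2 fold change ± SE (x axis, Piezo1 cKO minus control, edgeR) of tested genes of 4 pathway lists (y axis; a few genes are left out), coloured by list, with *Myl9* in black. Of the genes shown *Cdc42bpg* lies lowest, at -0.72, and *Myl9* lies at 0.89. The genes left out are not covered by this, so the full range of the lists is not shown.

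Sequence upstream of a RefSeq start is shown for 3 members: *Myl9*, the member called, and *Mylpf* and *Myl1*, which were highest in the same library. *Myl4* was highest in that library too, but only 42 bases before its start lie in no annotated exon, and its window held none of the 3 motifs searched. The stretches come from RefSeq promoter windows of GRCm38.p6, 250 bases before to 50 after the start, and were cut to the bases that lie in no annotated exon. They are chr2:156775214-156775419 (+), chr7:127211358-127211607 (+) and chr1:66945144-66945290 (-). The *Mylpf* and *Myl1* stretches lie inside the spans given above for these genes. They precede a RefSeq start and do not flank the whole gene. Capitals mark matches to the CArG box, the site of serum response factor, in *Myl9*, and to the E-box CANNTG, the site of MyoD and myogenin, in *Mylpf* and *Myl1*.
Myl9: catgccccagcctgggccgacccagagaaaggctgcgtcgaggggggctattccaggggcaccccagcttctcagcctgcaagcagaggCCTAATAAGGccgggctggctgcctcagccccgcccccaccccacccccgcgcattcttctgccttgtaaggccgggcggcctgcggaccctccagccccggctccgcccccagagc
Mylpf: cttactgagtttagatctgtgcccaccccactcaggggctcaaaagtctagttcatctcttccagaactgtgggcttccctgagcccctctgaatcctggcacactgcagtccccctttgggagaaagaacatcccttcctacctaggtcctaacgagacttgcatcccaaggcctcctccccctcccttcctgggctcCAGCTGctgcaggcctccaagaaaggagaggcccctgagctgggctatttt
Myl1: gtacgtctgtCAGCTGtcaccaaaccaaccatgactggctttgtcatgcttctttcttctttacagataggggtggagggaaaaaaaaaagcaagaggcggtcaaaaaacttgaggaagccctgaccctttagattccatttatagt
Both strands were searched, and in these 3 windows no match of a motif overlapped a match of another. Of 32851 promoter windows of this length, 1.63% held a CArG box, 72.3% an E-box and 3.19% a MEF2 box, the site of MEF2 factors. In the *Myl9* window the CArG box began 161 bases before the start, and an E-box lay after the start. The E-box began 51 bases before the start in *Mylpf* and 224 bases before it in *Myl1*. The windows of *Myl12a* and *Myl12b* held E-boxes and no CArG box, and none of the members' windows held a MEF2 box. These windows follow RefSeq starts. Those of *Mylpf*, *Myl1* and some others lie inside the gene's span, and those of *Myl2* lie apart from it. The bases just before such spans were not searched. A CArG box was also found in the window of a second start of *Myl6* and in that of *Myl3*. A match describes letters in a window and is no evidence of binding.

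Some members share sequence with other genes, which can move reads between them. In GENCODE M21 a second gene named *Myl12b* overlaps both neighbours on the same strand and shares 739 of 2770 exonic bases of *Myl12b* (26.7%) and 462 of 3360 exonic bases of *Myl12a* (13.8%). It covered none of the last 500 exonic bases of either gene, near which oligo-dT primed counts lie. Of the 50-base words of the *Myl12a* transcript 29.6% also occur in another gene's transcripts, and of *Myl12b* 33.0%, whereas the *Myl9*, *Mylpf* and *Myl4* transcripts share none. The second gene named *Myl12b* holds 29.2% of the *Myl12a* words and 33.0% of the *Myl12b* words. Between *Myl12a* and the first *Myl12b*, 10.2% of the *Myl12a* words and 9.17% of the *Myl12b* words are shared. *Myl6* shares 18.5% of its words with 5 other genes, of which the most counted, *Gm5526*, had between 23 and 31 counts per library. *Myl1* shares 23.4% with *Mylf-ps*, which had 6 counts in cKO-labelled library 2 and 0 elsewhere, and which was named after its values were seen. What this sharing does to the counts was not tested, so the split between *Myl12a* and *Myl12b* is uncertain.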

How the data were processed

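The authors primed cDNA at the poly(A) tail, tagged each molecule with a random identifier (UMI), mapped the reads with STAR 2.7.9a to GRCm38 (per the submitters' processing notes), assigned them to genes with featureCounts 2.0.1 and counted UMIs with UMI-tools 1.1.1. The deposited values are these counts per gene, not normalised, with 1 column for each of the 6 libraries. Strand and multi-mapping settings are not given in the sources used here. Groups and replicate numbers were taken from the labels.

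Counts were analysed in R 4.3.3 with edgeR 4.0.16 (TMM, filterByExpr with a minimum count of 10, robust quasi-likelihood fit, Benjamini-Hochberg adjustment over all 8551 genes tested, called under 0.05). The alternatives were DESeq2 1.42.0, which is the tool named in the study's methods, limma-voom and cyclic loess with 3 iterations in limma 3.58.1, DESeq2 size factors, total counts only, no filter, at least 10 counts in every library, a replicate block and each library left out. Ratios within a library used 0.5 added counts and exact permutation tests. The fits were tested on simulated data, and the outcome of that test is not reported here. Within groups, chi-square per degree of freedom between libraries was 1.64 to 2.61, above sampling noise for each pair, which does not show whether libraries came from separate animals.

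The members and gene lists were chosen with earlier results of these data known. Named were all members, called pathway genes or else the 2 most abundant of each list, *Mylk*, *Myh9* and *Myh10*, the 5 genes most like *Myl9* and *Mylpf*, and *Piezo1*. Any other gene was named after its values were seen. Results of some listed genes and of 1 list are not reported here, but these genes entered the fits and the counts. Levels of listed genes without a row were not analysed here.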

Additional observations from a re-analysis of the deposited data

How the results depend on the processing

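*Myl9* was higher in the cKO-labelled libraries under all 14 alternatives, with log2 fold changes from 0.75 to 1.18, and was called in 10 of them. The number of light chain genes called was 1, and it was 0 with DESeq2 and with cyclic loess and ranged from 0 to 3 with a library left out; the 3, without cKO-labelled library 1, were *Myl1*, *Myl4* and *Myl9*, of which *Myl1* and *Myl4* entered that fit with the help of their high cKO-labelled libraries and are not read as support, and the count was 0 without control library 3 or cKO-labelled library 2. Over all genes the count of 67 became 27 with DESeq2, 32 with cyclic loess and 129 with no filter, and ranged from 6 (without cKO-labelled library 2) to 174 (without cKO-labelled library 1) with a library left out. Total-count scaling moved the median log2 fold change of all genes to 0.0781 and made 73.1% of the calls higher, beside 59.7%. This share was 44.4% with DESeq2 (12 higher, 15 lower). It was 82.8% without cKO-labelled library 3 (24 higher, 5 lower). The count of pathway genes called was 0, became 1 with no filter (*Myh3*), and ranged from 0 to 1 with a library left out. The cause of these changes was not tested.

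With the replicate block 46 genes were called, the light chain count stayed 1 and *Myl9* had a log2 fold change of 0.88 (edgeR adjusted p = 0.0153). Whether same-numbered libraries share more than a number is not given in the sources used here. The correlations of their deviations from the group means were -0.143, -0.203 and 0.0121, beside -0.105 to 0.229 for other pairs. Such deviations sum to 0 in each group of 3, so these values cannot show whether the libraries were paired. The difference between the groups in the log2 ratio of *Myl9* to *Myl12a* under the pairing was 0.95, with an exact sign-flip p of 0.25, the smallest that 3 pairs can give.

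Signs turned for values near 0. The log2 fold change of *Myl6* was 0.046 with total counts and 0.169 with cyclic loess, and from -0.127 to 0.0643 with a library left out. That of *Myl12a* was 0.00342, 0.175, and from -0.148 to 0.0101. That of *Calm2* was 0.0998 with cyclic loess. That of *Myh9* was 0.0601 with total counts and 0.0335 with cyclic loess, and from -0.161 to 0.123 with a library left out. That of *Myh10* was -0.0121 with DESeq2, -0.0377 with cyclic loess and -0.00287 with no filter, and from -0.134 to 0.172 with a library left out. With a library left out, the log2 ratio of *Myl6b* to *Myl6* ranged from -1.09 to 0.39. The other ratios kept their sign. Depth limits what can be said of *Myl1*, *Myl12b*, *Myl6b* and *Myl2*, which had few counts or none.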
